A study of Mus musculus with 10 samples.

Results

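Imprinted genes are expressed mainly or only from the copy inherited from 1 parent, because their control regions carry DNA methylation that was laid down in the egg or the sperm and is kept through the early embryo. Many of them set the growth of the embryo and the placenta, and in general those expressed from the paternal copy promote growth while those expressed from the maternal copy restrain it. They lie in clusters that often pair a protein-coding gene with a long non-coding RNA expressed from the opposite parental copy.

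The set described here holds 35 imprinted mouse genes, chosen by symbol and all found among the 20974 genes of the table. Of these, 21 are known to be expressed from the paternal copy and 14 from the maternal copy. For *Grb10*, *Ddc*, *Asb4*, *Tspan32*, *Cd81*, *Ppp1r9a*, *Nap1l4* and *Trappc9* this is known only for some tissues. Whether it holds in these embryos was not tested. The levels are totals over both copies: reads were not assigned to a parental allele, so imprinting itself was not measured.

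They were followed in 5 *Rreb1*-/- and 5 *Rreb1*+/+ embryos at embryonic day (E) 7.5, numbered as replicates 2 to 6 in each genotype. What a shared number stands for is not given in the sources used here. The labels give CD1, an outbred stock, as the strain of all embryos, while the study's methods describe mice crossed to CD1 and kept on a background mixed with 129 Sv and C57BL6. The embryos came from matings of *Rreb1*+/- parents, so mothers of both genotypes carried 1 mutant copy. The mutant allele lacks most of the coding part of exon 6; the study kept 2 such deletion lines, and which line each embryo came from is not given in the sources used here. Each embryo was sequenced on its own after its parietal endoderm had been taken for genotyping, with polyA-selected RNA. Values are normalized counts, that is reads per gene divided by a size factor of the embryo.

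Depth was 31467767 to 35446574 counted reads in *Rreb1*-/- embryos and 33317560 to 35786876 in *Rreb1*+/+ embryos. *Rreb1* itself had 3988 to 5715 normalized counts in *Rreb1*-/- and 2365 to 2924 in *Rreb1*+/+ embryos; these counts cover the whole gene and so do not check the deleted part. The summed counts of 4 Y-linked genes were 5849 to 9171 in *Rreb1*-/- replicates 3 to 6, 2.12 in *Rreb1*-/- replicate 2 and at most 3.82 in *Rreb1*+/+ embryos, so that sex and genotype can hardly be told apart. In both genotypes replicates 5 and 6 stood apart from replicates 2 to 4 along the first principal component, which held 37.0% of the variance. Of 8 markers of maternal decidua 6 were in the table, with sums of 679 to 1651 in *Rreb1*-/- and 703 to 1585 in *Rreb1*+/+ embryos. They include *Pecam1*, which the study used to mark vasculature of the embryo, with up to 1003 in *Rreb1*-/- and 1124 in *Rreb1*+/+ embryos. The sums therefore do not measure decidua alone. Of the 4 tested, 2 had a mean above that of *Rreb1*+/+ embryos and 2 below. None was called with limma, and *Pgr* was above the wild-type embryo of its number in all 5 mutants (limma adjusted p = 0.0618). DESeq2 called 1, against 7.77% of all genes tested. The decidual prolactin gene *Prl8a2* had at most 13.6 in *Rreb1*-/- and 30.7 in *Rreb1*+/+ embryos. The sum of 8 markers of parietal endoderm was 92391 and 98109 in *Rreb1*-/- replicates 2 and 6 and 45600 to 49061 in *Rreb1*-/- replicates 3 to 5, against 46117 to 59366 in *Rreb1*+/+ embryos. Of these 8 markers 1, *Plat*, was called higher with limma, against 3.11% of all genes tested. *Plat* did not follow the sum. It had 1159 and 1655 in *Rreb1*-/- replicates 2 and 6 and 711 to 1227 in *Rreb1*-/- replicates 3 to 5, against 294 to 551 in *Rreb1*+/+ embryos. With *Rreb1*-/- replicates 2 and 6 left out, an alternative chosen after the data were seen, 0 members were called with limma. That fit called 277 of all 15605 genes tested higher in mutants and 150 lower.

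The comparison of genotypes asked whether the imprinted genes were altered in *Rreb1*-/- embryos. None of the 35 members passed an adjusted p of 0.05 with limma, in a fit over the 15603 genes that reached a mean of 15 in either genotype, in which 4.26% of genes were called (3.11% higher and 1.15% lower in mutants). All 35 members were among the genes tested. At an unadjusted p under 0.05 limma gave 3 members, *Ddc*, *Asb4* and *Peg10*, against 18.0% of all genes tested. With edgeR on the recovered reads 0 members passed an adjusted p of 0.05, against 4.32% of genes. With DESeq2 on the same reads 2 passed, *Ddc* and *Asb4*, against 7.77% of genes.

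The median log2 fold change of the 35 members was −0.09, beside −0.02 over all genes tested. It was −0.09 for the 21 paternally expressed members and −0.05 for the 14 maternally expressed members. The mean was below that of *Rreb1*+/+ embryos for 22 of the 35 members, 14 of them paternally and 8 maternally expressed, while 52.9% of all genes tested lay below. None of the 35 members had genotypes that did not overlap, against 6.70% of all genes tested. For 9 of the 35 members all 5 mutants were on 1 side of the same-numbered wild-type embryo, against 23.5% of all genes tested, which is near that background.

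The width of the intervals sets what these embryos could show. For 22 of the 35 members the 95% interval of the fold change lay within 1.5-fold in either direction, and for 29 it lay within 2-fold. The narrowest belonged to *Nap1l4*, a histone chaperone gene at the edge of the *Kcnq1* cluster, with a log2 fold change of 0.00 and an interval of −0.10 to 0.10. The widest belonged to *Tspan32*, a tetraspanin gene of the same cluster, with −1.73 and an interval of −3.59 to 0.14. The 6 members whose intervals reached past 2-fold were *Dlk1*, *Plagl1*, *Peg12*, *Nap1l5*, *Asb4* and *Tspan32*.

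**Figure D1:**
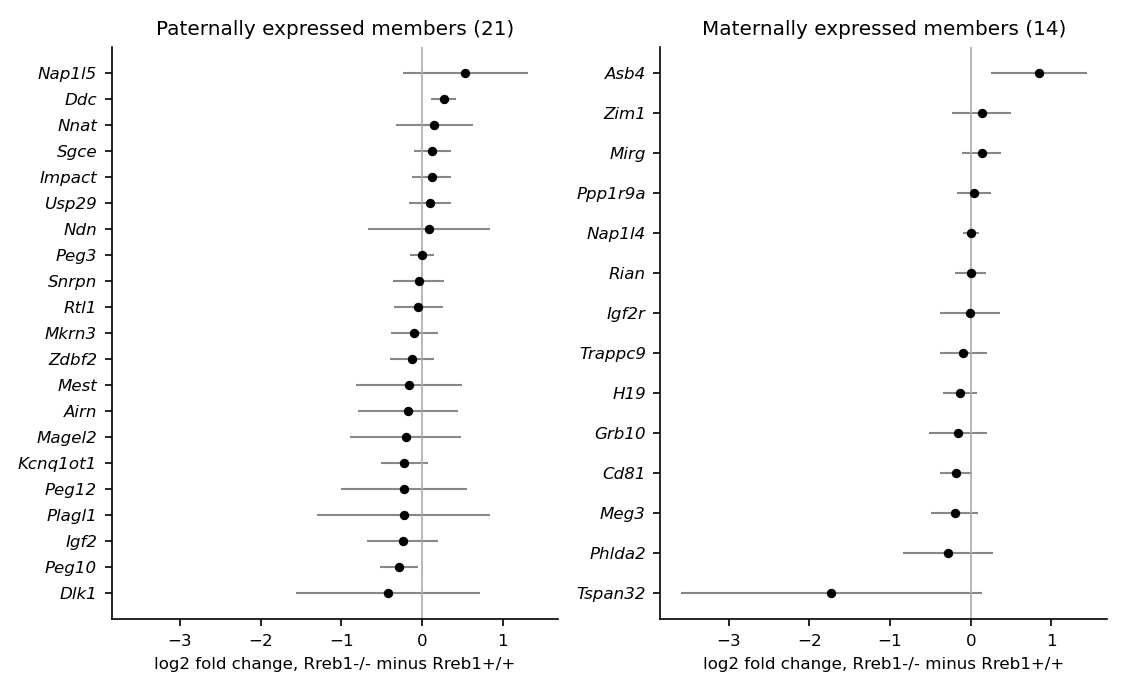
Log2 fold change of *Rreb1*-/- over *Rreb1*+/+ embryos (x axis) for the 21 paternally expressed members (left) and the 14 maternally expressed members (right). Points are limma estimates and bars are 95% intervals, n = 5 embryos each. Only the intervals of *Ddc*, *Asb4* and *Peg10* leave out 0, and none of the 35 passed an adjusted p of 0.05.

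Levels between genes were compared per kb of annotated exon. *H19*, the long non-coding RNA expressed from the maternal copy of the *Igf2* cluster, ranked 5 of 15565 genes by its mean per kb over the 10 embryos. Its own share of counted reads was 0.480% to 0.679% in *Rreb1*-/- embryos and 0.588% to 0.702% in *Rreb1*+/+ embryos, while the 35 members together held 1.17% to 1.53% in *Rreb1*-/- and 1.38% to 1.60% in *Rreb1*+/+ embryos. *Peg10*, a gene derived from a retrotransposon and needed for the placenta, ranked 125, and *Igf2* ranked 173. Of the 35 members 12 were in the top 10% by level per kb and 14 were in the lower 50%. At the low end, *Usp29*, *Kcnq1ot1* and *Tspan32* ranked 14380, 14511 and 14786. The first 2 are divided by long annotated exons, 18078 and 93092 bases, so their rank does not mean that reads were few. *Kcnq1ot1* had 526 to 718 normalized counts in *Rreb1*-/- and 614 to 930 in *Rreb1*+/+ embryos.

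The *Igf2* cluster on chromosome 7 carries the growth factor gene *Igf2*, expressed from the paternal copy, and *H19*, expressed from the maternal copy; they share enhancers and a control region. *Igf2* (chr7:142650766-142666816, minus strand, GRCm38) had 31886, 28318, 26324, 52603 and 48610 normalized counts in *Rreb1*-/- replicates 2 to 6, against 39990, 37239, 35829, 53509 and 49196 in *Rreb1*+/+ replicates 2 to 6. Each mutant was below the wild-type embryo of its number, and the genotypes overlapped because replicates 5 and 6 of both were high. This gave a log2 fold change of −0.24 (SE 0.20) and an adjusted p of 0.576 (limma). The ratio of means was 0.765 in replicates 2 to 4 and 0.985 in replicates 5 and 6.

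*H19* (chr7:142575529-142578143) had 220956, 197970, 160507, 201738 and 226165 normalized counts in *Rreb1*-/- replicates 2 to 6, against 217942, 196595, 216460, 233539 and 235284 in *Rreb1*+/+ replicates 2 to 6. Only *Rreb1*-/- replicate 4 lay below the whole *Rreb1*+/+ range. The log2 fold change was −0.13, with a 95% interval of −0.34 to 0.07 (limma adjusted p = 0.497).

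The ratio of *H19* to *Igf2* within an embryo does not depend on the size factor. Its log2 averaged 2.47 ± 0.38 in *Rreb1*-/- and 2.36 ± 0.18 in *Rreb1*+/+ (SD, 5 embryos each; exact permutation p = 0.579). In both genotypes it was lower in replicates 5 and 6 (1.94 and 2.22 in *Rreb1*-/-, 2.13 and 2.26 in *Rreb1*+/+) than in replicates 2 to 4 (2.61 to 2.81 in *Rreb1*-/-, 2.40 to 2.59 in *Rreb1*+/+).

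*Igf2r*, which encodes the receptor that takes up IGF2 for degradation and is expressed from the maternal copy, lies in its own cluster on chromosome 17 with the paternally expressed non-coding RNA *Airn* on the opposite strand. *Igf2r* had 14128, 13289, 9651, 16494 and 17200 normalized counts in *Rreb1*-/- replicates 2 to 6, against 14196, 12281, 10872, 18311 and 15411 in *Rreb1*+/+ replicates 2 to 6. The ranges overlapped over most of their span, and the log2 fold change was −0.01 with a 95% interval of −0.39 to 0.36. *Airn* had 108 to 245 normalized counts in *Rreb1*-/- and 117 to 280 in *Rreb1*+/+ embryos. The 2 genes overlap on opposite strands and the strand setting of the counting is not given in the sources used here, so reads of one may have entered the other.

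*Grb10*, an adaptor that dampens insulin and IGF signalling and is expressed from the maternal copy in most embryonic tissues, had 18938, 18412, 19824, 30434 and 24994 normalized counts in *Rreb1*-/- replicates 2 to 6, against 20891, 23052, 20756, 31995 and 28969 in *Rreb1*+/+ replicates 2 to 6. All 5 mutants lay below the wild-type embryo of their number, the log2 fold change being −0.16 (95% interval −0.52 to 0.20, limma adjusted p = 0.647). Replicates 5 and 6 were above replicates 2 to 4 in both genotypes.

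*Phlda2*, a maternally expressed gene that limits placental growth, had 3084, 5764, 3999, 6223 and 7469 normalized counts in *Rreb1*-/- replicates 2 to 6, against 5994, 5755, 7673, 4015 and 8275 in *Rreb1*+/+ replicates 2 to 6. Both genotypes spanned about the same range. Its log2 fold change was −0.28 (95% interval −0.84 to 0.27, limma adjusted p = 0.605). It turned with the embryos used: the ratio of means was 0.661 in replicates 2 to 4 and 1.11 in replicates 5 and 6.

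The other members of the *Kcnq1* cluster on chromosome 7 were *Kcnq1ot1*, the paternally expressed antisense RNA that silences its neighbours, and the maternally expressed *Cd81*, *Tspan32* and *Nap1l4*. *Kcnq1ot1* had 526 to 718 normalized counts in *Rreb1*-/- and 614 to 930 in *Rreb1*+/+ embryos. *Cd81*, a tetraspanin gene, had 1848 to 2517 in *Rreb1*-/- and 2268 to 2624 in *Rreb1*+/+ embryos and was below its wild-type number in all 5 mutants (log2 fold change −0.18, 95% interval −0.38 to 0.01). Neither passed the adjusted test. The log2 ratio of *Phlda2* to *Kcnq1ot1* averaged 3.05 ± 0.42 in *Rreb1*-/- and 3.11 ± 0.65 in *Rreb1*+/+ (SD, 5 embryos each; exact permutation p = 0.849).

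*Tspan32* was the lowest member per kb. It had 7.42, 1.04, 6.37, 50.2 and 56.3 normalized counts in *Rreb1*-/- replicates 2 to 6, against 33.6, 26.1, 23.9, 88.3 and 69.7 in *Rreb1*+/+ replicates 2 to 6. Every mutant was below the wild-type embryo of its number. Over all embryos the genotypes overlapped (exact permutation p = 0.214). Within replicates 2 to 4 they did not, with mutant counts of at most 7.42. That subset was looked at after the values were seen. The share of all genes without overlap in it was not counted, so no weight can be given to this separation. On the log2 scale the difference was −1.73 (SE 0.85), with an adjusted p of 0.317 by limma. The ratio of means was 0.177 in replicates 2 to 4 and 0.674 in replicates 5 and 6. The summed level of 6 markers of primitive blood was also lower in each mutant set of embryos. It was 349 to 450 normalized counts in *Rreb1*-/- replicates 2 to 4 and 2738 to 3024 in *Rreb1*-/- replicates 5 and 6. In *Rreb1*+/+ embryos it was 1059 to 1621 in replicates 2 to 4 and 8098 to 12401 in replicates 5 and 6. Of these 6 markers 0 were called with limma, edgeR or DESeq2 and 3 with the replicate block, a fit that called 6.87% of genes. With limma 2 had an unadjusted p under 0.05, against 18.0% of all genes tested. Their part in the *Tspan32* values was not tested, and in whole embryos fewer cells of a type and less RNA per cell cannot be told apart.

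**Figure D2:**
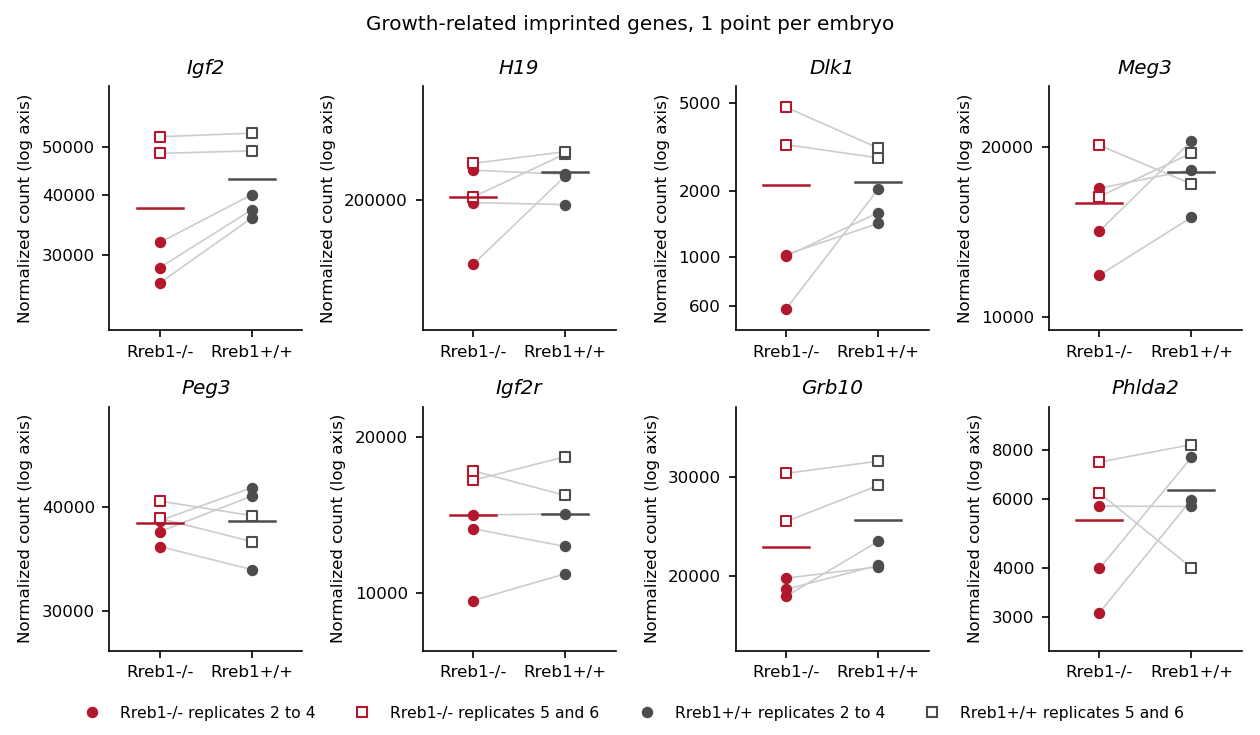
Normalized counts (log axis) of *Igf2*, *H19*, *Dlk1*, *Meg3*, *Peg3*, *Igf2r*, *Grb10* and *Phlda2* in each embryo, *Rreb1*-/- on the left and *Rreb1*+/+ on the right of each panel. Filled circles are replicates 2 to 4, open squares are replicates 5 and 6, horizontal bars are means and grey lines join embryos of the same number. The genotypes overlap in all 8 panels, and for *Igf2*, *Dlk1*, *Igf2r* and *Grb10* both squares lie above all 3 circles in each genotype.

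The *Dlk1-Meg3* cluster on chromosome 12 expresses *Dlk1*, a transmembrane ligand of the Notch family, and *Rtl1*, a retrotransposon-derived gene needed in the placenta, from the paternal copy. From the maternal copy it expresses the non-coding RNAs *Meg3*, *Rian* and *Mirg*, which carry small nucleolar RNAs and microRNAs. *Dlk1* had 1030, 1011, 585, 3246 and 4793 normalized counts in *Rreb1*-/- replicates 2 to 6, against 1427, 1597, 2038, 2828 and 3134 in *Rreb1*+/+ replicates 2 to 6. The mutants were below all wild-type embryos in replicates 2 to 4 and above all of them in replicates 5 and 6. The log2 fold change over all embryos was −0.42 with a 95% interval of −1.56 to 0.71, the ratio of means being 0.519 in replicates 2 to 4 and 1.35 in replicates 5 and 6.

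*Meg3* had 11860, 14191, 16886, 16323 and 20107 normalized counts in *Rreb1*-/- replicates 2 to 6, against 15005, 20471, 18206, 19486 and 17181 in *Rreb1*+/+ replicates 2 to 6. It was below the wild-type embryo of its number in 4 of 5 mutants (log2 fold change −0.20, 95% interval −0.49 to 0.09, limma adjusted p = 0.462). The ratio of means was 0.800 in replicates 2 to 4 and 0.994 in replicates 5 and 6. *Rian* had 22600 to 28112 in *Rreb1*-/- and 22305 to 29868 in *Rreb1*+/+ embryos, and *Mirg* had 2042 to 2883 in *Rreb1*-/- and 1951 to 2582 in *Rreb1*+/+ embryos. *Rtl1* was low, with 216 to 290 in *Rreb1*-/- and 210 to 309 in *Rreb1*+/+ embryos, and it is transcribed against maternal RNAs of the cluster, so its counts carry the same doubt about strand as those of *Airn*.

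The maternal RNAs of the cluster were compared with each other and with *Dlk1* as ratios. The log2 ratio of *Meg3* to *Rian* was lower in each of the 5 mutants than in the wild-type embryo of its number, with means of −0.75 ± 0.31 in *Rreb1*-/- and −0.54 ± 0.28 in *Rreb1*+/+ (SD, 5 embryos each; exact permutation p = 0.317). The log2 ratio of *Meg3* to *Dlk1* averaged 3.32 ± 1.14 in *Rreb1*-/- and 3.09 ± 0.49 in *Rreb1*+/+ embryos (exact permutation p = 0.706). It was 2.07 to 4.85 in *Rreb1*-/- and 2.45 to 3.68 in *Rreb1*+/+ embryos, so the mutants were spread more widely.

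Several members are host RNAs of microRNAs, which act through their seed, bases 2 to 8. By RefSeq positions on GRCm38.p6, 29 microRNA hairpins with 55 mature sequences lie inside 8 of the members, 14 of the hairpins inside *Mirg*, 3 inside *Rian* and 6 on the strand opposite to *Rtl1*. The libraries measured the host RNAs and not the mature microRNAs. Those below are shown because their hosts are described here, with the seed in capitals; the first pair comes from *H19*, then 1 each from *Igf2*, *Mest* and *Rian*, 3 from *Mirg* and 2 from the strand opposite to *Rtl1*.
mmu-miR-675-5p: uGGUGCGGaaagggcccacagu
mmu-miR-675-3p: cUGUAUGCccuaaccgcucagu
mmu-miR-483-3p: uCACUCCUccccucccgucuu
mmu-miR-335-5p: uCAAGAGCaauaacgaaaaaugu
mmu-miR-370-3p: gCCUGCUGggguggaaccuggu
mmu-miR-453: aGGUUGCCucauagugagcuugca
mmu-miR-496a-5p: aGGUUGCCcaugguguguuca
mmu-miR-410-3p: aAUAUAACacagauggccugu
mmu-miR-127-3p: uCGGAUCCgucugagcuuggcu
mmu-miR-434-3p: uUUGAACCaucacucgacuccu
Among the 55 mature sequences 1 seed was shared, that of mmu-miR-453 and mmu-miR-496a-5p, both inside *Mirg*; the other sequences printed each have a seed of their own.

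Among the clusters, the *Peg3* cluster on chromosome 7 had the smallest median SD within genotypes, 0.13 on the log2 scale. *Peg3*, a paternally expressed zinc finger gene, had 38491, 37346, 35831, 40609 and 38717 normalized counts in *Rreb1*-/- replicates 2 to 6, against 42138, 41173, 33632, 39021 and 36325 in *Rreb1*+/+ replicates 2 to 6. The mutants lay inside the wild-type range, and the log2 fold change of −0.01 had a 95% interval of −0.16 to 0.14. *Usp29*, a paternally expressed gene that starts next to *Peg3* and runs the other way, had 131 to 159 in *Rreb1*-/- and 122 to 145 in *Rreb1*+/+ embryos. The maternally expressed zinc finger gene *Zim1* had 487 to 915 in *Rreb1*-/- and 502 to 697 in *Rreb1*+/+ embryos.

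The *Peg10*-*Sgce* cluster on chromosome 6 held 2 of the 3 members with an unadjusted p under 0.05 and the only ratio whose genotypes did not overlap. *Peg10* (chr6:4747306-4760517, plus strand) and *Sgce* (chr6:4674350-4747207, minus strand), which encodes epsilon-sarcoglycan, start within a short distance of each other, run in opposite directions and are both expressed from the paternal copy. *Peg10* had 63491, 51304, 48948, 54006 and 45969 normalized counts in *Rreb1*-/- replicates 2 to 6, against 73594, 59779, 52215, 66863 and 70319 in *Rreb1*+/+ replicates 2 to 6. It was below the wild-type embryo of its number in all 5 mutants, the log2 fold change being −0.29 (SE 0.11, 95% interval −0.53 to −0.05, limma adjusted p = 0.182). The mutant without Y-linked counts, replicate 2, was the highest of the 5, and with the Y-linked covariate the log2 fold change was 0.03 (limma adjusted p = 0.926). In replicates 2 to 4 alone it was −0.18 (limma adjusted p = 0.565) and in replicates 5 and 6 alone −0.46 (limma adjusted p = 0.209).

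*Sgce* had 1215, 881, 857, 1042 and 1129 normalized counts in *Rreb1*-/- replicates 2 to 6, against 1029, 891, 866, 945 and 919 in *Rreb1*+/+ replicates 2 to 6. It was above the wild-type embryo of its number in 3 of 5 mutants (log2 fold change 0.13, 95% interval −0.10 to 0.36, limma adjusted p = 0.564). The highest mutants were replicates 2 and 6, those with the high sum of parietal endoderm markers. With both left out the log2 fold change was −0.0085 (limma adjusted p = 0.984). The part of these markers in the *Sgce* values was not tested beyond that.

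The log2 ratio of *Sgce* to *Peg10* was −5.71, −5.86, −5.83, −5.69 and −5.35 in *Rreb1*-/- replicates 2 to 6, against −6.16, −6.07, −5.91, −6.14 and −6.26 in *Rreb1*+/+ replicates 2 to 6. All 5 mutants lay above all 5 wild-type embryos. The difference of the means was 0.42 (−5.69 ± 0.21 for *Rreb1*-/- against −6.11 ± 0.13 for *Rreb1*+/+, SD, n = 5 each), with an exact permutation p of 0.00794, the smallest that 5 against 5 embryos allow. Adjusted over the 11 ratios computed (Benjamini-Hochberg) it was 0.0873, so it did not pass the correction. With the replicate number as a block, the exact sign-flip test gave p = 0.0625, the smallest that 5 pairs allow. The difference was 0.24 in replicates 2 to 4 and 0.68 in replicates 5 and 6. With *Rreb1*-/- replicates 2 and 6 left out it was 0.31 (exact permutation p = 0.0357, 3 against 5 embryos). Of the other ratios, those of *Mirg* to *Rian*, *Rtl1* to *Dlk1*, *Zim1* to *Peg3*, *Usp29* to *Peg3* and *Airn* to *Igf2r* had exact permutation p-values of 0.0952 to 0.5 and adjusted values of at least 0.524.

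The maternally expressed genes of the same cluster were *Asb4*, which encodes an ankyrin repeat and SOCS box protein, and *Ppp1r9a*, which encodes an actin-binding regulator of protein phosphatase 1. *Asb4* and *Ddc*, like *Tspan32* above, were singled out for full values after their results had been seen. *Asb4* (chr6:5383386-5433022, plus strand) had 2364, 2305, 2361, 1156 and 1173 normalized counts in *Rreb1*-/- replicates 2 to 6, against 985, 1318, 1284, 864 and 642 in *Rreb1*+/+ replicates 2 to 6. Every mutant was above the wild-type embryo of its number, but mutants 5 and 6 lay below wild-type replicates 3 and 4, since replicates 5 and 6 of both genotypes were low.

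*Asb4* had the largest log2 fold change upward of the 35 members, 0.85 (SE 0.27, 95% interval 0.26 to 1.44). It did not pass the adjusted test over all embryos (limma adjusted p = 0.117, exact permutation p = 0.0476). With the replicate number as a block, a fit that called 6.87% of genes, it was called higher (limma adjusted p = 0.00519), and with DESeq2 too (adjusted p = 0.0123). In replicates 2 to 4 alone the log2 fold change was 0.98 and called (limma adjusted p = 0.00765); in replicates 5 and 6 alone it was 0.64 and not called (limma adjusted p = 0.192). *Rreb1*-/- replicate 2, the only mutant without Y-linked counts, had 2364, close to mutants 3 and 4. A fit that took the Y-linked sum as covariate gave 1.23 (limma adjusted p = 0.212). The summed level of 8 markers of extraembryonic ectoderm and trophoblast was also highest in *Rreb1*-/- replicates 2 to 4: it was 13364 to 16788 normalized counts there and 7263 to 7804 in *Rreb1*-/- replicates 5 and 6, beside 8818 to 12938 in *Rreb1*+/+ replicates 2 to 4 and 8022 to 10028 in *Rreb1*+/+ replicates 5 and 6. Single markers went both ways: in replicates 2 to 4 the ratio of means was 1.22 to 2.98 for *Eomes*, *Esrrb*, *Elf5* and *Tfap2c*. It was 0.193 to 0.813 for *Cdx2*, *Ascl2*, *Prl3d1* and *Tpbpa*, so the sum does not stand for all of them. Of these 8 markers 7 were tested and 0 were called with limma, edgeR or DESeq2, 0 having an unadjusted p under 0.05 with limma, and their part in the *Asb4* values was not tested. The other maternally expressed gene, *Ppp1r9a*, had 1530 to 1964 in *Rreb1*-/- and 1466 to 1951 in *Rreb1*+/+ embryos.

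*Ddc*, the gene for aromatic L-amino acid decarboxylase, neighbours *Grb10* on chromosome 11 (chr11:11814101-11898144, minus strand) and is known to be imprinted, with paternal expression, in the embryonic heart. It had 1041, 1007, 992, 839 and 966 normalized counts in *Rreb1*-/- replicates 2 to 6, against 846, 806, 789, 808 and 771 in *Rreb1*+/+ replicates 2 to 6. The genotypes overlapped only through *Rreb1*-/- replicate 5, which lay just below *Rreb1*+/+ replicate 2. The log2 fold change was 0.27 (SE 0.07, 95% interval 0.11 to 0.43, limma adjusted p = 0.0696, exact permutation p = 0.0159). Without *Rreb1*-/- replicate 5 it was 0.32 and called (limma adjusted p = 0.0265), and DESeq2 over all embryos called it (adjusted p = 0.00836). It was not called when any other embryo was left out or with the replicate number as a block (limma adjusted p = 0.0627). Nor was it called with the Y-linked covariate (limma adjusted p = 0.180) or with *Rreb1*-/- replicates 2 and 6 left out (limma adjusted p = 0.256). In replicates 2 to 4 alone it was 0.32 (limma adjusted p = 0.131) and in replicates 5 and 6 alone 0.19 (limma adjusted p = 0.600).

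**Figure D3:**
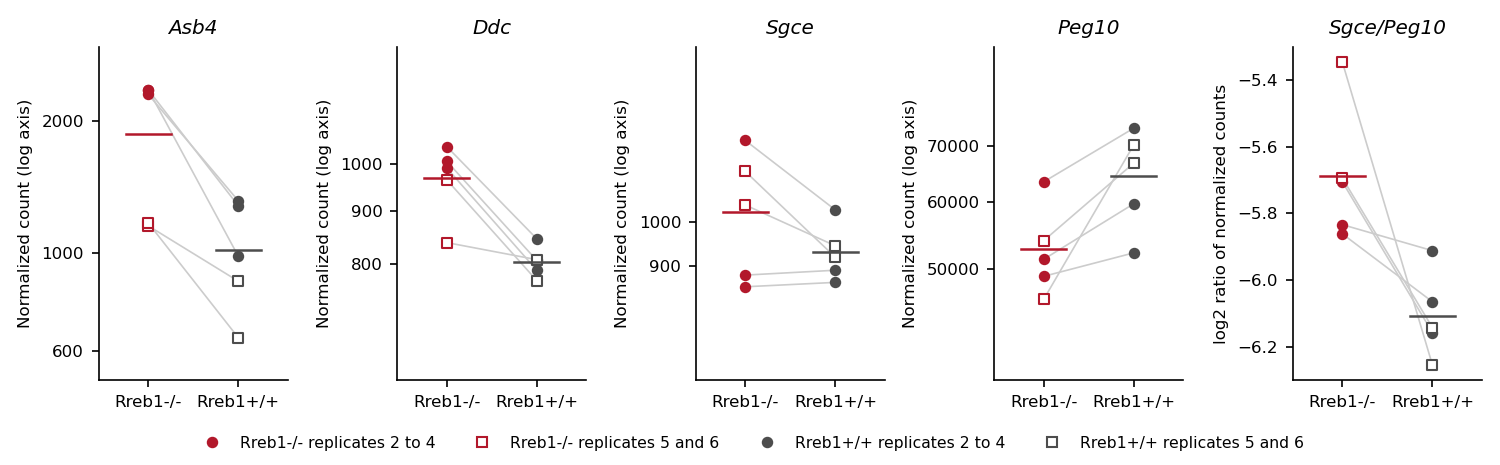
Normalized counts (log axis) of *Asb4*, *Ddc*, *Sgce* and *Peg10* and the log2 ratio of *Sgce* to *Peg10* in each embryo, *Rreb1*-/- on the left and *Rreb1*+/+ on the right of each panel. Filled circles are replicates 2 to 4, open squares are replicates 5 and 6, horizontal bars are means and grey lines join embryos of the same number. All 5 grey lines run higher on the *Rreb1*-/- side for *Asb4*, *Ddc* and the ratio, and lower for *Peg10*; only the ratio does not overlap between genotypes.

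The Prader-Willi cluster on chromosome 7 holds 5 members, all paternally expressed: *Snrpn*, which encodes a splicing protein, *Ndn* and *Magel2*, which encode proteins of the MAGE family, *Mkrn3*, a ring finger gene, and *Peg12*. None was called. *Snrpn* had 2924 to 4866 normalized counts in *Rreb1*-/- and 3302 to 4592 in *Rreb1*+/+ embryos, with a log2 fold change of −0.04 and a 95% interval of −0.36 to 0.27. *Ndn* had 514 to 1578 in *Rreb1*-/- and 611 to 1275 in *Rreb1*+/+ embryos. *Magel2* had the widest range of the 5 among mutants in proportion, with 223 to 942 in *Rreb1*-/- and 397 to 681 in *Rreb1*+/+ embryos.

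The 5 genes did not all move together across embryos. *Ndn* and *Peg12* were higher in replicates 5 and 6 than in 2 to 4 of both genotypes, while *Snrpn* was lower. The log2 ratio of *Ndn* to *Snrpn* was therefore −1.19 and −0.89 in *Rreb1*-/- replicates 5 and 6 and −1.69 and −1.37 in *Rreb1*+/+ replicates 5 and 6, against −3.02 to −2.67 in *Rreb1*-/- replicates 2 to 4 and −2.88 to −2.63 in *Rreb1*+/+ replicates 2 to 4. Between genotypes it differed by 0.13 (exact permutation p = 0.722). *Mkrn3* had 89.4 to 117 normalized counts in *Rreb1*-/- and 95.1 to 121 in *Rreb1*+/+ embryos.

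The 7 members outside these clusters were not called either. *Mest*, a paternally expressed gene for a hydrolase-like protein of mesoderm, had 6158 to 15644 normalized counts in *Rreb1*-/- and 7358 to 15614 in *Rreb1*+/+ embryos. *Plagl1*, a paternally expressed zinc finger gene, had 175 to 850 in *Rreb1*-/- and 239 to 881 in *Rreb1*+/+ embryos and was below the wild-type embryo of its number in all 5 mutants. *Nap1l5*, a paternally expressed gene of the nucleosome assembly protein family, was above it in all 5, with 40.5 to 107 in *Rreb1*-/- and 24.9 to 68.8 in *Rreb1*+/+ embryos (log2 fold change 0.54, 95% interval −0.24 to 1.31, limma adjusted p = 0.463).

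The remaining 4 had intervals within 2-fold. *Nnat*, a paternally expressed proteolipid gene, had a log2 fold change of 0.15 (95% interval −0.33 to 0.63). *Zdbf2*, a paternally expressed zinc finger gene, had −0.12 (−0.40 to 0.15), and *Impact*, a paternally expressed regulator of translation, had 0.12 (−0.12 to 0.36). *Trappc9*, a gene of vesicle transport with biased maternal expression known from mouse brain, had −0.09 (−0.38 to 0.20).

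Members varied between embryos of one genotype about as much as other genes did. The median SD within genotypes, on the log2 scale, was 0.24 over the 35 members and 0.21 over all genes tested, while the median size of the log2 fold change was 0.15 for the members and 0.14 for all genes tested. Replicates 5 and 6 lay above replicates 2 to 4 in both genotypes for 13 of the 35 members, against 8.15% of all genes tested, and below them for 2 members, against 5.77%. The 13 were *Igf2*, *Mest*, *Dlk1*, *Plagl1*, *Nnat*, *Ndn*, *Airn*, *Peg12* and *Nap1l5* among the paternally expressed members and *Igf2r*, *Grb10*, *Tspan32* and *Nap1l4* among the maternally expressed ones. The 2 that were lower were *Asb4* and *Snrpn*. These sets of embryos are not groups of the study, and no test was made between them.

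The size of that spread differed between members. It was small for *Nap1l4*, with 8176 to 8187 normalized counts in *Rreb1*-/- replicates 5 and 6 and 7646 to 7963 in *Rreb1*-/- replicates 2 to 4. *Mest* had 15644 and 12819 normalized counts in *Rreb1*-/- replicates 5 and 6 and 6158 to 7510 in *Rreb1*-/- replicates 2 to 4, beside 15614 and 13151 in *Rreb1*+/+ replicates 5 and 6 and 7358 to 8181 in *Rreb1*+/+ replicates 2 to 4. *Plagl1* had 850 and 771 in *Rreb1*-/- replicates 5 and 6 and 175 to 338 in *Rreb1*-/- replicates 2 to 4, beside 881 and 867 in *Rreb1*+/+ replicates 5 and 6 and 239 to 422 in *Rreb1*+/+ replicates 2 to 4.

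Markers of embryonic tissues differed between the same embryos. The sum of 7 epiblast markers was 19640 to 22628 normalized counts in *Rreb1*-/- replicates 5 and 6 and 40671 to 55021 in *Rreb1*-/- replicates 2 to 4, beside 23557 to 25108 in *Rreb1*+/+ replicates 5 and 6 and 39851 to 55642 in *Rreb1*+/+ replicates 2 to 4. Of these 7 markers 5 were lower in replicates 5 and 6 of both genotypes, against 5.77% of all genes tested, while *Utf1* and *Sox2* were not. *Dnmt3b* alone had 10065 to 35239 in *Rreb1*-/- and 14754 to 35744 in *Rreb1*+/+ embryos. The sum of 8 extraembryonic mesoderm markers was 17455 to 18353 in *Rreb1*-/- replicates 5 and 6 and 8487 to 13070 in *Rreb1*-/- replicates 2 to 4, beside 15408 to 15843 in *Rreb1*+/+ replicates 5 and 6 and 12433 to 12766 in *Rreb1*+/+ replicates 2 to 4. Only 3 of these 8 markers, *Postn*, *Tbx4* and *Vcam1*, were higher in replicates 5 and 6 of both genotypes, against 8.15% of all genes tested. The others, *Hand1* and *Ahnak* among them, were not, so the sum does not stand for all of them. The part of tissue makeup in the members' levels was not tested.

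**Figure D4:**
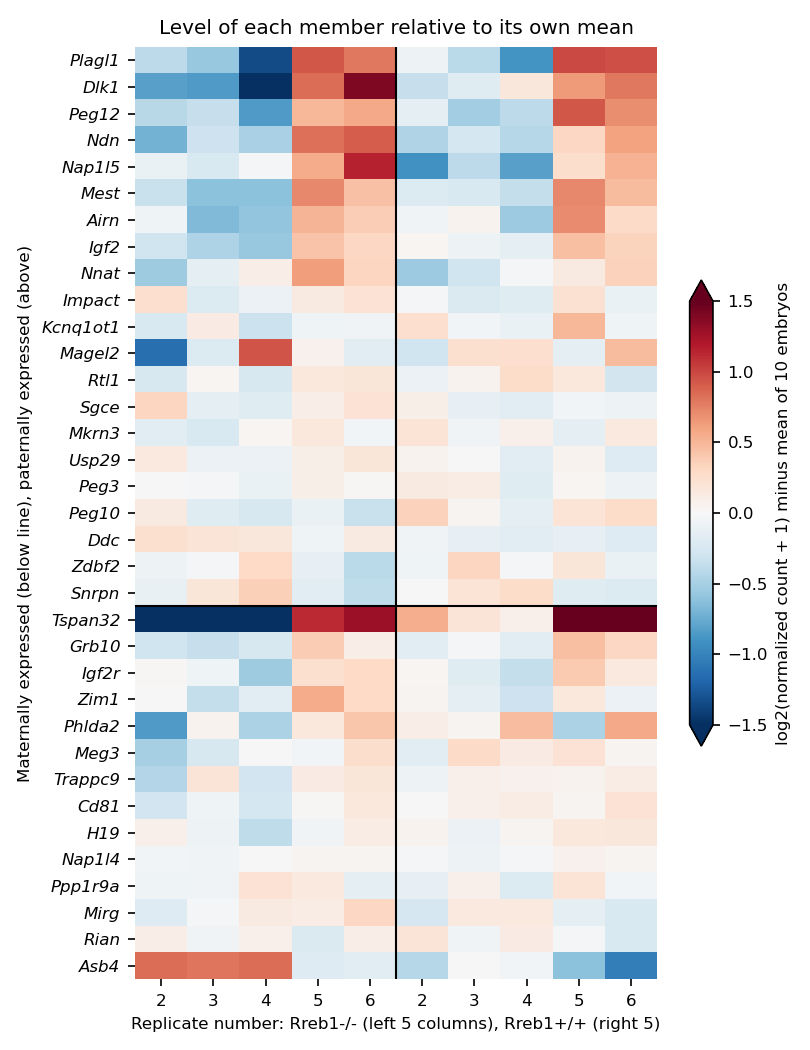
Level of each of the 35 members in each embryo relative to its own mean over the 10 embryos, as a difference of log2(normalized count + 1) (colour scale, red above and blue below the mean, colours ending at 1.5 in either direction). Columns are replicates 2 to 6 of *Rreb1*-/- (left of the line) and of *Rreb1*+/+ (right of it); rows are paternally expressed members above the line and maternally expressed members below it. The 13 members that are higher in replicates 5 and 6 of both genotypes lie above their own mean in those 4 columns. For *Nap1l4* the difference is so small that its colour stays near white. *Asb4* is highest in *Rreb1*-/- replicates 2 to 4.

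Promoters were looked at for the letters TGCCGC, the core bound by ZFP57 when its CpG is methylated, which helps to keep imprints after fertilization. RefSeq promoters (GRCm38.p6, 250 bases before to 50 bases after a start) were matched for 28 of the members, 42 promoters in all. The letters, on either strand, were in 11 of these 42 (26.2%) and in 11.6% of all 32851 promoters of the table. Some of the 42 overlap: the *Mest* windows chr6:30737800-30738099 and chr6:30737803-30738102 are nearly the same sequence and both count. Taking only the CpG-richest promoter of each of the 28 members, 8 held the letters. Members with a match were *Zdbf2*, *Nnat*, *Mest*, *Nap1l5*, *Zim1*, *Snrpn*, *Igf2*, *Plagl1*, *Grb10* and *Meg3*. The median over the 42 promoters was 10.5 CpGs, beside 7 over all promoters. The letters themselves hold a CpG, and the shares were not matched for CpG count. A match is a description only, and methylation was not measured.

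The promoters of *Mest* (chr6:30737800-30738099, plus strand), *Nap1l5* (chr6:58907077-58907376, minus strand) and *Plagl1* (chr10:13090582-13090881, plus strand) are shown because these paternally expressed genes were among the most variable between embryos and hold the letters, which are in capitals. That of *Asb4* (chr6:5383136-5383435, plus strand) is shown because *Asb4* had the largest upward log2 fold change of the members; it holds no match and so has no capitals.
Mest: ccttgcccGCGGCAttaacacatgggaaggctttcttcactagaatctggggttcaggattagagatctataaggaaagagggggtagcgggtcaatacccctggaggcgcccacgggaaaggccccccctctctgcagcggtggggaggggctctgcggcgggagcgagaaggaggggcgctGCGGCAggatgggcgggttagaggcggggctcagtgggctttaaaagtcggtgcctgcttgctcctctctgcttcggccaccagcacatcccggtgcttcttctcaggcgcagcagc
Nap1l5: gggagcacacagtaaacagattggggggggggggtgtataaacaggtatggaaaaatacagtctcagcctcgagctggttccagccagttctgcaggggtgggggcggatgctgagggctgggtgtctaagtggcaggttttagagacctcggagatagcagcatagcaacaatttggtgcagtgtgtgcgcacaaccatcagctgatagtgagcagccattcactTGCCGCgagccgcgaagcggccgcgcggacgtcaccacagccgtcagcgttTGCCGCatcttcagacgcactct
Plagl1: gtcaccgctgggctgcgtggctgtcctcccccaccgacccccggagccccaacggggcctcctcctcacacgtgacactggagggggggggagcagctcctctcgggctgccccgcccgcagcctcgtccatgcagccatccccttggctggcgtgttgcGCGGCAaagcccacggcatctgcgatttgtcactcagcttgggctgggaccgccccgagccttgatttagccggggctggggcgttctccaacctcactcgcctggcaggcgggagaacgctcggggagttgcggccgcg
Asb4: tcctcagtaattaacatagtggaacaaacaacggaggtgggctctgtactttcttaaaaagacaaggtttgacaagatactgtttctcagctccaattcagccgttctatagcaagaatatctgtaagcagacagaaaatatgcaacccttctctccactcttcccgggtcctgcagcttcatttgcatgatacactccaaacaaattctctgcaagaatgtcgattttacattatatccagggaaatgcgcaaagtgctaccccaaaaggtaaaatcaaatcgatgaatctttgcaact

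Imprinted genes outside the set were counted for comparison, from a list of 23 maternally and 19 paternally expressed genes, of which 34 were tested. Of these 1 was called, against 4.26% of all genes tested, so the share is not above that background. It was *H13*, which encodes a signal peptide peptidase and is expressed from the maternal copy. It had 3345, 3708, 3241, 3236 and 3893 normalized counts in *Rreb1*-/- replicates 2 to 6, against 2879, 2509, 3065, 2961 and 2687 in *Rreb1*+/+ replicates 2 to 6. The genotypes did not overlap, as for 6.70% of all genes tested, and the log2 fold change was 0.30 (SE 0.08, limma adjusted p = 0.0463). It was not called with the replicate number as a block (limma adjusted p = 0.0760), with the Y-linked covariate (0.395), with *Rreb1*-/- replicates 2 and 6 left out (0.162) or when any 1 embryo was left out. Of this list 4 genes had an unadjusted p under 0.05, against 18.0% of all genes tested, and its median log2 fold change was −0.05.

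Of 12 genes that keep or set imprints, 11 were tested and 0 were called with limma or with edgeR, 3 having an unadjusted p under 0.05, against 18.0% of all genes tested. The log2 fold change was below 0 for 10 of the 11, against 52.9% of all genes tested, with a median of −0.14, beside −0.02. *Uhrf1*, which brings the maintenance methyltransferase to newly copied DNA, had 9393 to 12458 normalized counts in *Rreb1*-/- and 12123 to 14377 in *Rreb1*+/+ embryos (log2 fold change −0.33, limma adjusted p = 0.0509). *Dnmt1*, that methyltransferase, had 9042 to 12281 in *Rreb1*-/- and 11825 to 13440 in *Rreb1*+/+ embryos (log2 fold change −0.27, limma adjusted p = 0.0842). Both were below the wild-type embryo of their number in all 5 mutants. DESeq2 and the fit with the replicate number as a block each called both of them lower and no other gene of the list, against 7.77% and 6.87% of all genes called by these fits. With *Rreb1*-/- replicates 2 and 6 left out neither was called. The log2 fold change was then −0.22 for *Uhrf1* (limma adjusted p = 0.210) and −0.18 for *Dnmt1* (limma adjusted p = 0.319). *Zfp57*, the zinc finger gene named above, differed by −0.14 (limma adjusted p = 0.469).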

How the data were processed

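The deposited table gives 1 signal value per gene and embryo. As the authors describe, reads from stranded polyA libraries were aligned with STAR in 2 passes with known Ensembl junctions, processed with Picard, counted per gene with HTSeq and divided by DESeq size factors; which build, gene models and strand setting the counting used is not given in the sources used here. Whole reads were recovered from the steps of each column (tolerance 0.1 read). Positions and exon lengths came from GENCODE M21 (GRCm38), by identifier.

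The genotype test was limma 3.58.1 (moderated, with trend; R 4.3.3) on log2(normalized count + 1), for genes that reached a mean of 15 in either genotype, with Benjamini-Hochberg adjustment over all genes tested; fold changes are on that scale, which understates low genes. Single values and log2 ratios within clusters (+1 each) used exact two-sided permutation tests over 252 arrangements. edgeR 4.0.16 and DESeq2 1.42.0 were run on recovered reads. The procedure was tested on simulated data, drawn without the split between sets of replicates and without a sex difference. That test does not tell how the procedure behaves in these embryos. Same-numbered embryos correlated at 0.253 to 0.459 after removal of genotype means (5 pairs), each over 0.1, so the number of the titles was also used as a block. Only mutant 2 correlated best with the wild-type embryo of its number. Mutants 3, 4, 5 and 6 correlated best with wild-type replicates 4, 3, 6 and 5, so the number is not shown to mark true pairs. All members are named; values of every embryo are given for members past an adjusted p of 0.05 or without overlap between genotypes, for both genes of a ratio without overlap, and for *H19*, *Igf2*, *Dlk1*, *Meg3*, *Grb10*, *Igf2r*, *Phlda2* and *Peg3*, and also, after their values were seen, for *Asb4*, *Ddc* and *Tspan32*; of other lists the called genes are named. The members and lists were chosen with earlier results of these data known. Intervals are from the moderated fit.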

Additional observations from a re-analysis of the deposited data

How the results depend on the processing

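The alternatives were edgeR, DESeq2, TMM factors, quantile normalization, pseudocounts of 0.5 and 10, no filter, a mean of at least 50 (34 members tested), the replicate block, the Y-linked sum as a covariate, replicates 2 to 4 alone, replicates 5 and 6 alone, leaving out each embryo and, chosen after seeing the data, *Rreb1*-/- replicates 2 and 6 left out. The count of members called, 0, became 2 with DESeq2 (1 paternally and 1 maternally expressed), 1 with the replicate block and 1 in replicates 2 to 4 (*Asb4* in both, maternally expressed). It was 0 to 1 on leaving out 1 embryo, the 1 being *Ddc* without *Rreb1*-/- replicate 5 (paternally expressed members also 0 to 1). Of all genes tested, DESeq2 called 7.77% and the replicate block 6.87%. Replicates 2 to 4 alone called 339 genes higher and 219 lower of 15548. The fit without *Rreb1*-/- replicate 5 called 416 higher and 168 lower of 15609. The replicate block changed no other call of a member. Log2 fold changes called only under an alternative were 0.88 for *Asb4* and 0.27 for *Ddc* with DESeq2, and for *Asb4* 0.85 with the block and 0.98 in replicates 2 to 4. The median of the 35 members was −0.16 with the Y-linked covariate and 0.0038 in replicates 5 and 6.

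For the other imprinted genes, the 1 called higher (*H13*) became 0 with no filter, the replicate block, the Y-linked covariate, either set of replicates and *Rreb1*-/- replicates 2 and 6 left out, and 0 on leaving out any embryo; 1 was called lower (*Slc22a18*) in replicates 2 to 4 and with *Rreb1*-/- replicates 2 and 6 left out, and 0 to 1 on leaving out 1 embryo (the 1 without *Rreb1*-/- replicate 6); their median was 0.066 with the Y-linked covariate. Of the imprint maintenance genes, 2 were lower with DESeq2 and with the replicate block, 1 with a pseudocount of 10 and 1 with a mean of at least 50, and 0 to 2 on leaving out 1 embryo.

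No member was called where its sign turned. With quantile normalization *Igf2r* became 0.011 and *Peg3* 0.016, and with DESeq2 *Rian* became −0.0017. With the Y-linked covariate *H19* became 0.014, *Igf2r* 0.044, *Peg3* 0.031, *Mirg* −0.16, *Peg10* 0.033, *Nnat* −0.49, *Ndn* −0.62, *Ppp1r9a* −0.043 and *Nap1l4* −0.046. With *Rreb1*-/- replicates 2 and 6 left out *Rian* became −0.065, *Sgce* −0.0085, *Snrpn* 0.10, *Magel2* 0.16 and the log2 ratio difference of *Ndn*/*Snrpn* −0.051. In replicates 2 to 4 *Rian* became −0.046, *Mirg* −0.038, *Zim1* −0.034 and *Ndn* −0.12. In replicates 5 and 6 *Igf2r* became 0.0038, *Peg3* 0.075, *Dlk1* 0.41, *Phlda2* 0.24, *Mkrn3* 0.054, *Rtl1* 0.23, *Ppp1r9a* −0.078, *Nap1l4* −0.0082 and *Trappc9* 0.068. Leaving out 1 embryo gave −0.10 to 0.12 for *Igf2r*, −0.053 to 0.028 for *Peg3*, −0.058 to 0.054 for *Rian*, −0.49 to 0.076 for *Plagl1*, −0.14 to 0.047 for *Snrpn*, −0.12 to 0.28 for *Ndn*, −0.47 to 0.054 for *Magel2*, −0.12 to 0.019 for *Rtl1*, −0.011 to 0.094 for *Ppp1r9a*, −0.016 to 0.018 for *Nap1l4* and −0.15 to 0.0070 for *Trappc9*; for log2 ratio differences it gave −0.16 to 0.53 for *Meg3*/*Dlk1*, −0.32 to 0.086 for *Phlda2*/*Kcnq1ot1* and −0.17 to 0.36 for *Ndn*/*Snrpn*. The cause of these changes was not tested, and 5 embryos a genotype, with sex nearly aligned to genotype, limit what can be told.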
